A study of Rattus norvegicus with 4 samples.

Results

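The genes described here encode the transcriptional coactivators YAP (Yap1) and TAZ (Wwtr1), their DNA-binding partners Tead1, Tead2, Tead3 and Tead4, the TEAD cofactor Vgll4, and the widely used targets Ctgf, Cyr61 and Ankrd1. They were taken by symbol from the deposited expression values of cultured neonatal rat heart cells, which list 10 of 10 such genes among 15731 genes. RNA came from ventricular cardiomyocytes of wild type Wistar rats isolated at postnatal day 1, and every culture was transfected with a synthetic microRNA mimic. The control mimic was cel-miR-67, a worm microRNA, and the others were miR-25, miR-93 and miR-106b, which form one microRNA cluster. There was 1 library for each mimic and 4 in all, so no difference between mimics has a replicate check, and no p-value is given. The treatment label gives the mimic dose as 25 nM, whereas the extraction protocol gives the same figure in mM, and RNA was taken 72 h after transfection.

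The Hippo pathway is a kinase chain that phosphorylates YAP and TAZ and so keeps them out of the nucleus. Unphosphorylated YAP and TAZ bind TEAD factors and switch on genes of growth, matrix and cytoskeleton, among them their own upstream inhibitors. In the heart YAP drives cardiomyocyte proliferation before and shortly after birth, and Vgll4 competes with it for TEAD.

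The mimics differ in the seed, bases 2 to 8 of a mature microRNA, which pairs with target messages. The labels name the human microRNAs, whereas the sequences shown are the mature rat microRNAs of the same names from RefSeq, so that the seeds can be compared. All lie on the minus strand of rat chromosome 12 in the GRCr8 build, at chr12:22157103-22157123 for miR-106b-5p, chr12:22156894-22156916 for miR-93-5p and chr12:22156652-22156673 for miR-25-3p. Capitals mark the seed.
rno-miR-106b-5p: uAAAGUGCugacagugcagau
rno-miR-93-5p: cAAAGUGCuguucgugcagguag
rno-miR-25-3p: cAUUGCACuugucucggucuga
The miR-106b and miR-93 sequences share the seed AAAGUGC, and miR-25 carries another.

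The second set of sequences is shown because Ctgf and Cyr61 are read as TEAD targets, and the TEAD motif CATTCC can be looked for before their start sites. RefSeq promoter windows of the GRCr8 build were searched over the 250 bases before each start, on both strands, so that a match on the other strand reads GGAATG. A window was held for 6 of the 10 genes, and 4 of these genes had a match. Tead1, Tead2, Tead4 and Ankrd1 had no entry. The windows are given 5′ to 3′ on the strand of the gene, which for both genes is the minus strand, with each motif match in capitals. They lie at chr1:22624615-22624864 for Ctgf, listed in RefSeq as Ccn2, and at chr2:237225690-237225939 for Cyr61, listed as Ccn1.
Ctgf: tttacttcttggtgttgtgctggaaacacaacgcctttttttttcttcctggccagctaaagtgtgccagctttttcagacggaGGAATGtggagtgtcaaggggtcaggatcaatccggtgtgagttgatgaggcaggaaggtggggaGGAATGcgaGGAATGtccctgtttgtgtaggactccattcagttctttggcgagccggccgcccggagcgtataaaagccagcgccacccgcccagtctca
Cyr61: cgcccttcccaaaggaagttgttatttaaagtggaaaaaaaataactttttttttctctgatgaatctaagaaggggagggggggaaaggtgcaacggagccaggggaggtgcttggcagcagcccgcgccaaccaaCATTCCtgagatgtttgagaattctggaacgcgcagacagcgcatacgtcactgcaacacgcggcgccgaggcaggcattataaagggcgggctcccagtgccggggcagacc
The Ctgf window held 3 matches, beginning 166, 101 and 92 bases before the start, and the Cyr61 window held 1 match at 113 bases. Yap1 had 1 match at 116 bases, 1 of the 3 windows of Vgll4 had 2 matches at 208 and 16 bases, and the windows of Wwtr1 and Tead3 had none. Of 33469 windows of the same length, 12.1% held at least 1 match, and 27 windows, or 0.0807%, held 3 or more as that of Ctgf did. A match describes the letters of the window and does not show that a TEAD factor binds there.

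**Figure D1:**
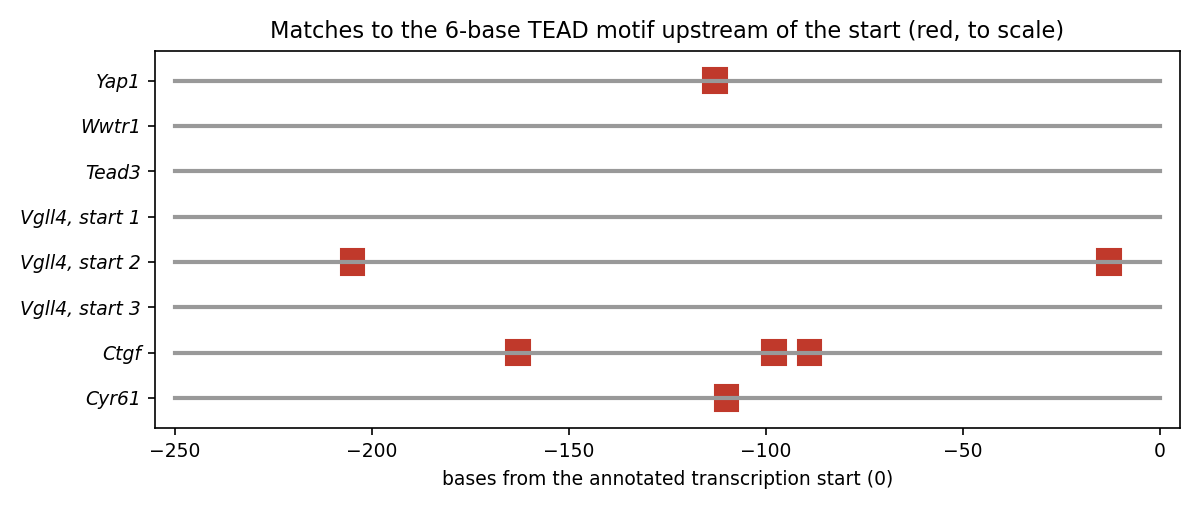
Position of the TEAD motif in the RefSeq promoter windows of 6 genes, one line per window, with the distance in bases before the annotated start on the horizontal axis. Each mark is a match on either strand. The Ctgf window holds 3 matches, of which those at 101 and 92 bases lie close together.

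Expression was given as RPKM, reads on a gene scaled to gene length and to library size, so levels can be compared between genes. The whole reads behind these values were recovered, and listed genes held 15175184 reads in the control library, 18797233 for miR-106b, 16520057 for miR-93 and 16460107 for miR-25. These were 66.9%, 63.2%, 60.5% and 60.4% of the library sizes that the values imply. Differences are given as the log2 ratio of RPKM values with the 95% exact interval from the recovered reads. The interval covers counting error in these libraries and not the spread between cultures. A gene was called higher or lower past 1.3-fold, a log2 ratio of 0.38, with an RPKM above 1.0 in both libraries.

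All 5 cardiomyocyte markers analysed were detected in every library, and the miR-25 library stood apart, with Tnni3 at an RPKM of 15.9 beside 351 in the control. The summed RPKM of 5 cardiomyocyte markers (Tnnt2, Actn2, Myh6, Ryr2 and Tnni3) was 4410 in the control, 4122 after miR-106b, 4172 after miR-93 and 2624 after miR-25. That of 6 fibroblast markers (Col1a1, Col1a2, Col3a1, Dcn, Lum and Pdgfra) was 698, 577, 658 and 269 in the same order, and that of 4 smooth muscle markers (Myh11, Cnn1, Tagln and Acta2) 745, 686, 583 and 2051. With miR-25 all 5 cardiomyocyte markers were lower past the cutoff, Tnni3 by a log2 ratio of -4.47. With the same mimic 5 of 6 fibroblast markers were lower and 1 higher, and 4 of 4 smooth muscle markers were higher. The miR-106b and miR-93 libraries each had 1 cardiomyocyte marker higher, 2 lower, and 3 fibroblast markers lower. Among the smooth muscle markers, miR-106b had 1 higher and 1 lower, whereas miR-93 had 2 lower. Over all genes tested, 19.3% were higher and 22.6% lower after miR-25. These shares were 15.1% and 15.6% after miR-93, and 11.9% and 12.7% after miR-106b. Endothelial markers (Cdh5, Kdr and Tek) summed to between 3.58 and 4.37 RPKM and macrophage markers (Ptprc, Cd68, Adgre1 and C1qa) to between 3.26 and 9.51. No marker analysed was at 0 in any library. The part of these markers in the values of the 10 genes and of the lists was not tested.

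All 10 genes had an RPKM above 1.0 in every library and so passed that filter in all comparisons. They are listed as Yap1 (ENSRNOG00000005933), Wwtr1 (ENSRNOG00000016617), Tead1 (ENSRNOG00000015488), Tead2 (ENSRNOG00000020695), Tead3 (ENSRNOG00000000506), Tead4 (ENSRNOG00000005608), Vgll4 (ENSRNOG00000007822), Ctgf (ENSRNOG00000015036), Cyr61 (ENSRNOG00000014350) and Ankrd1 (ENSRNOG00000018598). The levels spanned a wide range. In the control library Ankrd1 stood first with an RPKM of 2753, followed by Ctgf at 103, Cyr61 at 56.3, Tead3 at 46.9, Wwtr1 at 20.8, Yap1 at 12.1, Tead1 at 11.9, Vgll4 at 8.18, Tead2 at 6.15 and Tead4 at 2.00. Of the neighbours in this order, Yap1 and Tead1 did not differ beyond counting error (log2 ratio 0.02, interval -0.15 to 0.18), and the other neighbours did. Yap1 lay below Wwtr1 in the control and with miR-25. It did not differ from Wwtr1 beyond counting error with miR-106b (log2 ratio 0.02, interval -0.12 to 0.15) and with miR-93 (log2 ratio 0.06, interval -0.06 to 0.19). The same held for Cyr61 and Tead3 with miR-93 (log2 ratio of Tead3 over Cyr61 0.05, interval -0.02 to 0.13), and for Tead2 and Vgll4 with miR-25 (log2 ratio of Vgll4 over Tead2 0.11, interval -0.09 to 0.31).

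**Figure D2:**
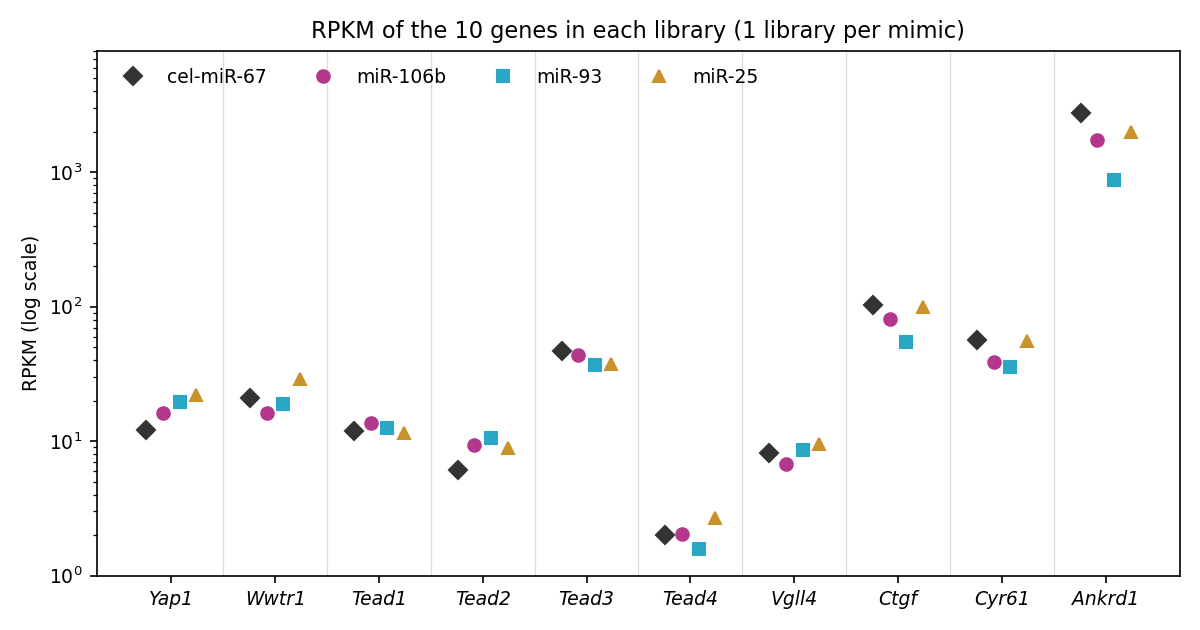
RPKM of the 10 genes in each of the 4 libraries, 1 point per library, on a log axis, with the genes in order of role. The Ankrd1 points lie above those of all other genes, between 871 and 2753, and Tead4 lies lowest, between 1.59 and 2.66.

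The first question was which of these genes differed from the control with each mimic. The coactivator Yap1 and the factor Tead2 were higher with all 3 mimics, and the target Ankrd1 was lower with all 3. With miR-106b 2 genes were higher and 2 lower, where 11.9% of the 11296 genes tested were higher and 12.7% lower. With miR-93 2 genes were higher and 3 lower, where 15.1% and 15.6% of 11280 genes were. With miR-25 4 genes were higher and 1 lower, where 19.3% and 22.6% of 11198 genes were. With 10 genes, such counts differ from the background shares by few genes and are no result about the group. Scaled to the reads on listed genes, the counts with miR-25 were 4 higher and 0 lower, and over all genes tested 3284 were then higher and 1782 lower. The same counts over all genes were 2836 higher and 1089 lower for miR-93, and 1882 higher and 1026 lower for miR-106b. The median log2 ratio of the 10 genes was -0.19 after miR-106b, -0.24 after miR-93 and 0.11 after miR-25, beside medians of -0.00, -0.00 and -0.01 over all genes tested. All 3 comparisons use the same control library, so a high or low value in it enters each of them.

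**Figure D3:**
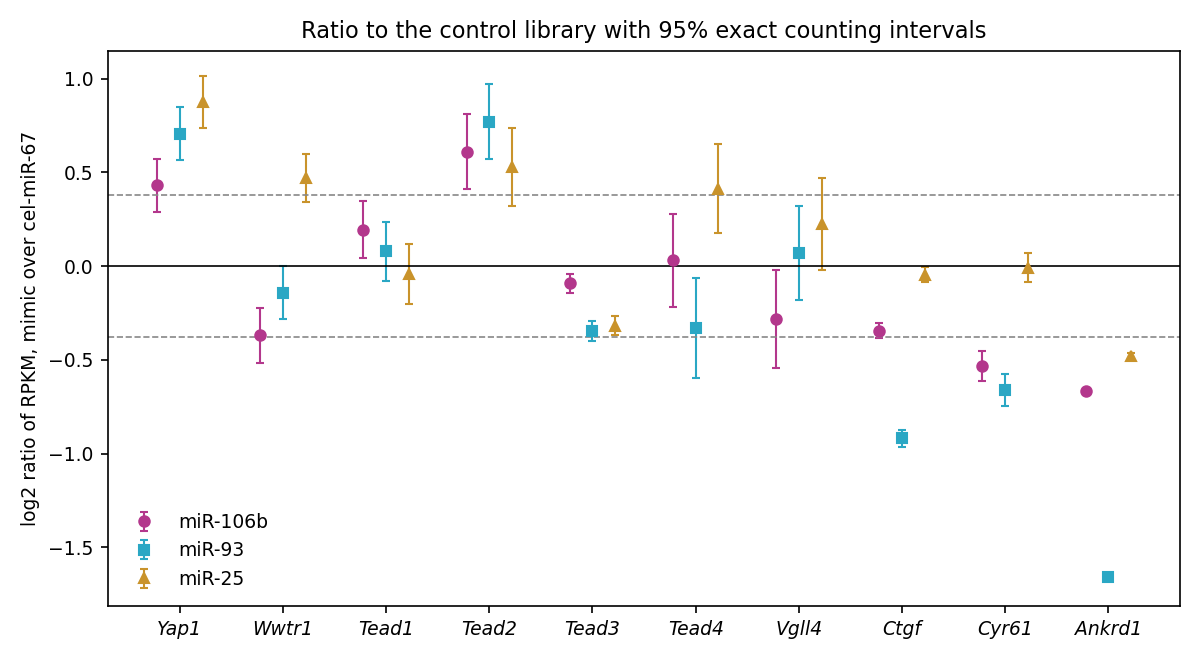
Log2 ratio of RPKM over the control library for each gene and mimic, with 95% exact intervals that cover counting error only and dashed lines at 1.3-fold. Yap1 and Tead2 lie above the upper line with every mimic, Ankrd1 lies below the lower line with every mimic, and Ctgf and Cyr61 lie near 0 with miR-25.

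Yap1 encodes YAP, the main effector of the pathway. Its RPKM was 12.1 in the control library, 16.3 after miR-106b, 19.7 after miR-93 and 22.2 after miR-25, from 626, 1107, 1231 and 1381 reads. The control library was the lowest of the 4. Against it, Yap1 was 1.35-fold higher with miR-106b (log2 ratio 0.43, interval 0.29 to 0.57), 1.63-fold higher with miR-93 (0.71, 0.57 to 0.85) and 1.84-fold higher with miR-25 (0.88, 0.74 to 1.01). Between mimics, it was higher past 1.3-fold with miR-25 than with miR-106b (log2 ratio 0.45), whereas miR-93 over miR-106b (0.28) and miR-25 over miR-93 (0.17) stayed short of the cutoff.

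Wwtr1 encodes TAZ, the paralog of YAP that binds the same TEAD factors. Its RPKM was 20.8 in the control library, 16.1 after miR-106b, 18.9 after miR-93 and 28.8 after miR-25. The miR-25 library was thus the highest and the miR-106b library the lowest. The ratio to the control passed the cutoff with miR-25, at 1.39-fold higher (log2 ratio 0.47, interval 0.34 to 0.60). With miR-106b it was just short of it (log2 ratio -0.37, interval -0.51 to -0.22), and with miR-93 it was -0.14 (-0.28 to 0.00). Set directly against each other, miR-25 gave 1.79-fold more Wwtr1 than miR-106b (log2 ratio 0.84, interval 0.71 to 0.97).

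The balance of the 2 coactivators therefore differed between libraries. The summed RPKM of Yap1 and Wwtr1 was 32.9 in the control, 32.4 after miR-106b, 38.6 after miR-93 and 51.0 after miR-25. Yap1 over Wwtr1 was 0.581 in the control, 1.01 after miR-106b, 1.05 after miR-93 and 0.769 after miR-25. This within-library ratio needs no library size. On the log2 scale the ratio was above that of the control by 0.80 with miR-106b (interval 0.60 to 1.00), by 0.85 with miR-93 (0.65 to 1.05) and by 0.41 with miR-25 (0.22 to 0.60). The mimics that share a seed did not differ in it beyond counting error (0.05, interval -0.14 to 0.23), and miR-25 was lower than miR-106b by a log2 difference of -0.39 (-0.57 to -0.22) and than miR-93 by one of -0.44 (-0.61 to -0.27). With miR-106b the summed level was close to that of the control while its makeup shifted from Wwtr1 toward Yap1, and with miR-25 both genes were higher.

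The TEAD factors bring YAP and TAZ to DNA. Tead1 is the member best known for muscle genes, and its RPKM was 11.9 in the control, 13.6 after miR-106b, 12.6 after miR-93 and 11.6 after miR-25. It had the narrowest range of the 10 genes, with the highest library 1.18-fold above the lowest, and no comparison passed the cutoff. Tead2 is known from embryonic tissues. It had 6.15 in the control, 9.39 after miR-106b, 10.5 after miR-93 and 8.86 after miR-25, and the control was the lowest. It was 1.53-fold higher with miR-106b (log2 ratio 0.61, interval 0.41 to 0.81), 1.71-fold higher with miR-93 (0.77, 0.57 to 0.97) and 1.44-fold higher with miR-25 (0.53, 0.32 to 0.73). No pair of mimics differed past the cutoff in Tead2.

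Tead3, the most abundant of the 4 in every library, had 46.9 in the control, 44.0 after miR-106b, 36.9 after miR-93 and 37.6 after miR-25. The log2 ratios were -0.09 (interval -0.14 to -0.04), -0.35 (-0.40 to -0.30) and -0.32 (-0.37 to -0.27), so that counting error was small and no ratio reached 1.3-fold. Tead4 was the least abundant, at 2.00, 2.04, 1.59 and 2.66 in the same order. Its ratio to the control passed the cutoff with miR-25, at 1.33-fold higher (log2 ratio 0.41, interval 0.18 to 0.65), but was 0.29 with 1 RPKM added to both values. With miR-93 it was -0.33 (-0.60 to -0.06).

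The TEAD messages together had a similar sum in the 4 libraries and differed in composition. The summed RPKM was 66.96 in the control, 69.1 after miR-106b, 61.6 after miR-93 and 60.7 after miR-25. Tead3 made up 70.0% of the sum in the control, 63.7% after miR-106b, 59.9% after miR-93 and 61.9% after miR-25. Tead2 made up 9.19%, 13.6%, 17.0% and 14.6%. The shares of Tead1 ran from 17.8% to 20.5% and those of Tead4 from 2.58% to 4.38%. The ratio of Tead2 to Tead3 within a library was above that of the control by 0.70 on the log2 scale with miR-106b (interval 0.50 to 0.91), by 1.12 with miR-93 (0.91 to 1.33) and by 0.85 with miR-25 (0.63 to 1.06).

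**Figure D4:**
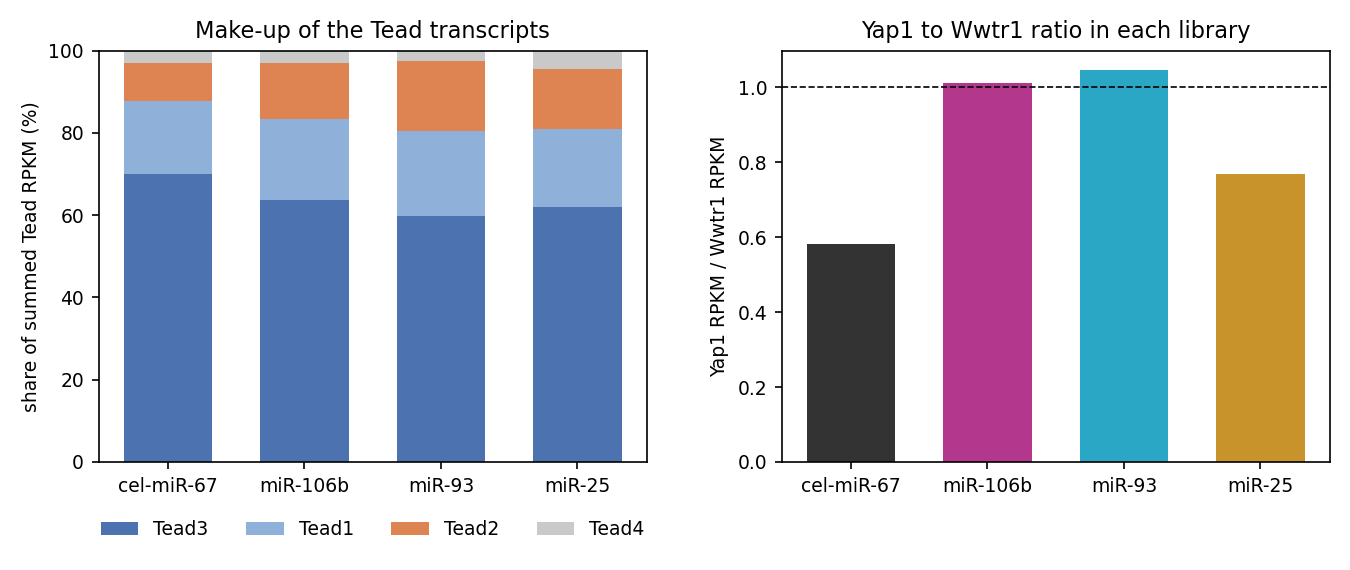
Left, the share of each Tead gene in the summed Tead RPKM of each library, in percent, as stacked bars. Right, Yap1 RPKM divided by Wwtr1 RPKM in each library, with a dashed line at equal levels. The Tead2 share is larger with each mimic than the 9.19% of the control, and the Yap1 to Wwtr1 ratio, 0.581 in the control, lies near equality with miR-106b and miR-93.

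Vgll4, which competes with YAP for TEAD, had an RPKM of 8.18 in the control, 6.73 after miR-106b, 8.59 after miR-93 and 9.55 after miR-25. No ratio to the control passed the cutoff, at -0.28 (interval -0.54 to -0.02), 0.07 (-0.18 to 0.32) and 0.22 (-0.02 to 0.47). It rests on 238 to 334 reads, and the intervals with miR-93 and miR-25 included 0. Its miR-25 library stood above its miR-106b library past the cutoff (log2 ratio 0.50, interval 0.27 to 0.74). The only related cofactor listed, Vgll3, lay between 15.8 and 19.0 in the 4 libraries and passed the cutoff with no mimic.

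Of the 3 targets, Ankrd1 had the widest range over the libraries, with the highest 3.16-fold above the lowest, beside 1.89-fold for Ctgf and 1.58-fold for Cyr61. Ankrd1 encodes the cardiac ankyrin repeat protein, a stretch-responsive protein of the sarcomere and nucleus that is abundant in cardiomyocytes. Its RPKM was 2753 in the control, 1736 after miR-106b, 871 after miR-93 and 1976 after miR-25, and it held 0.728%, 0.486%, 0.255% and 0.579% of all reads on listed genes. The control was the highest library and miR-93 the lowest, with Ankrd1 at place 8, 13, 27 and 9 among the genes of the respective library by RPKM. It was 1.59-fold lower with miR-106b (log2 ratio -0.67, interval -0.68 to -0.65), 3.16-fold lower with miR-93 (-1.66, -1.68 to -1.64) and 1.39-fold lower with miR-25 (-0.48, -0.49 to -0.47). The miR-25 ratio was -0.33, short of the cutoff, when the libraries were scaled to their reads on listed genes. In whole cultures, fewer cells of a type and less of an RNA per cell cannot be told apart. The cardiomyocyte marker sum was lowest with miR-25, at 2624 beside 4410 in the control, and its part in the Ankrd1 values was not tested. With miR-93 the sum was 4172, of which Actn2 (log2 ratio -0.51) and Ryr2 (-0.62) were lower, Tnni3 was higher (0.49), and Tnnt2 (-0.21) and Myh6 (0.06) were short of the cutoff, and the part of these differences was not tested either.

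Ctgf encodes connective tissue growth factor, a secreted matricellular protein. Its RPKM was 103 in the control, 81.4 after miR-106b, 54.6 after miR-93 and 100.2 after miR-25. The control and miR-25 libraries lay together at the top and miR-93 lowest. Ctgf was 1.89-fold lower with miR-93 (log2 ratio -0.92, interval -0.96 to -0.88), short of the cutoff with miR-106b (-0.34, -0.38 to -0.31) and close to the control with miR-25 (-0.04, -0.08 to -0.01). Cyr61, a matricellular protein of the same CCN family, had 56.3 in the control, 38.9 after miR-106b, 35.6 after miR-93 and 56.0 after miR-25. It was 1.45-fold lower with miR-106b (log2 ratio -0.53, interval -0.62 to -0.45) and 1.58-fold lower with miR-93 (-0.66, -0.75 to -0.58), and did not differ beyond counting error with miR-25 (-0.01, -0.09 to 0.07). As with Ctgf, the control and miR-25 libraries formed the upper pair. Ctgf and Cyr61 are also made by fibroblasts and smooth muscle cells. With miR-25, where both were close to the control, the fibroblast marker sum was 269 beside 698 and the smooth muscle sum 2051 beside 745. With miR-93 these sums were 658 and 583, with 3 fibroblast and 2 smooth muscle markers lower and 0 higher. With miR-106b they were 577 and 686, with 3 fibroblast markers lower, and 1 smooth muscle marker higher and 1 lower. The part of these markers in the Ctgf and Cyr61 values was not tested.

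Direct ratios between mimics leave the control library out. Between miR-93 and miR-106b, which share a seed, no gene was higher with miR-93 and 2 were lower, where 7.30% and 8.21% of 11391 genes tested were. These were Ankrd1, 1.99-fold lower with miR-93 (log2 interval -1.01 to -0.98), and Ctgf (-0.58, -0.62 to -0.53). The other 8 genes stayed short of 1.3-fold, among them Yap1 (0.28, interval 0.16 to 0.39), Wwtr1 (0.23, 0.09 to 0.37), Tead2 (0.16, 0.00 to 0.32) and Cyr61 (-0.13, -0.22 to -0.04). Mimics of equal seed thus had different levels of Ankrd1 and Ctgf in these libraries. Scaled to the reads on listed genes, Vgll4 joined them as higher with miR-93, which made 1 higher and 2 lower, and over all genes 1190 higher and 706 lower.

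Over miR-106b, miR-25 had 5 genes higher and 0 lower, where 22.1% and 23.0% of 11183 genes tested were. The 5 were Yap1, Wwtr1, Tead4, Vgll4 and Cyr61, with Cyr61 at 1.44-fold (log2 ratio 0.53). Against miR-93, miR-25 had 5 genes higher and 0 lower, where 22.1% and 23.0% of 11198 genes were. Here they were Wwtr1 (log2 ratio 0.61), Tead4 (0.74) and the 3 targets. Ankrd1 was 2.27-fold higher with miR-25 than with miR-93 (log2 ratio 1.18, interval 1.17 to 1.20), Ctgf 1.83-fold (0.88, 0.83 to 0.92) and Cyr61 1.57-fold (0.65). The Tead4 ratio of miR-25 over miR-106b was 0.38, at the cutoff. It fell short at 0.37 with 0.1 RPKM added and at 0.27 with 1 RPKM added. Wwtr1 was the one coactivator that separated miR-25 from both other mimics past 1.3-fold.

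Other genes of the pathway were described by lists. Of a signature of 19 further YAP and TAZ targets, 18 were listed and tested. The counts of this and the other lists stand beside the shares of all genes tested, which were 19.3% higher and 22.6% lower with miR-25, 15.1% higher and 15.6% lower with miR-93, and 11.9% higher and 12.7% lower with miR-106b. With miR-106b 2 were higher and 4 lower (median log2 ratio -0.16), with miR-93 1 was higher and 5 lower (-0.20), and with miR-25 5 were higher and 4 lower (0.17). When scaled to the reads on listed genes, miR-25 had 8 higher and 3 lower, and miR-93 had 3 higher and 3 lower. Scaled counts of this and the other lists stand beside those of all genes under that scaling, not beside the shares above. With miR-25 3284 of 11198 genes were then higher and 1782 lower. With miR-93 2836 of 11280 were higher and 1089 lower, and with miR-106b 1882 of 11296 were higher and 1026 lower. Igfbp3, a carrier of insulin-like growth factors, had an RPKM of 1.45 in the control, 2.26 after miR-106b, 4.47 after miR-93 and 2.44 after miR-25, and was higher with all 3. Tgfb2, a transforming growth factor, had 61.8, 35.7, 18.3 and 79.9, and was lower with miR-106b (log2 ratio -0.79) and miR-93 (-1.75). Like Ctgf, it was lowest with miR-93. Gadd45a, a stress-response gene, was lower with miR-93 (-0.82) and miR-25 (-0.77), Axl, a receptor kinase, with miR-25 (-0.75), and F3, which encodes tissue factor, with miR-106b (-0.84). Ptpn14, a phosphatase that binds YAP, was higher with miR-106b (0.42) and miR-25 (0.72). The signature is one of targets that rise with YAP activity. Its calls went both ways with each mimic, but with miR-93 the 1 higher was Igfbp3, at an RPKM of 1.45 in the control. With an RPKM cutoff of 2.0, miR-93 had 0 higher and 5 lower, miR-106b 1 and 4, and miR-25 4 and 4. Such small counts are no result about the signature.

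Further genes often read as YAP outputs numbered 5. With miR-106b 1 was higher and 3 lower, and with miR-93 and with miR-25 1 was higher and 2 lower of the 4 tested, with medians of -0.39, -0.62 and -0.56. The cell cycle regulator Ccnd1 (cyclin D1) had an RPKM of 18.6 in the control, 7.74 after miR-106b, 5.76 after miR-93 and 28.4 after miR-25. Birc5 (survivin), a mitotic protein, ran the other way, at 6.82, 18.6, 14.0 and 3.36. Both passed the cutoff with every mimic, in opposite directions. The matrix protein Thbs1 was lower with miR-106b (log2 ratio -0.39) and miR-93 (-1.03), the growth factor Areg with miR-106b (-0.81) and the transcription factor Myc with miR-25 (-1.07).

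In the remaining CCN family, 4 genes were listed, of which 2 were lower with miR-106b, 1 with miR-93 and 1 of the 3 tested with miR-25, and none was higher. The medians were -0.47, -0.11 and -0.02, and scaling to the reads on listed genes turned the last 2 to 0.03 and 0.13, with 1 gene higher and 0 lower after miR-93. Nov (Ccn3), which is often described as opposed to Ctgf in function, had an RPKM of 29.9 in the control, 16.6 after miR-106b, 23.8 after miR-93 and 11.5 after miR-25, and was lower with miR-106b (log2 ratio -0.85) and miR-25 (-1.39). Wisp2 was lower with miR-106b (-0.57) and Wisp1 with miR-93 (-0.45). The 2 relatives of Ankrd1 in the muscle ankyrin repeat family, Ankrd2 and Ankrd23, were below an RPKM of 1.0 in every library and were not tested. Ankrd1 was the one abundant gene of its family here.

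Muscle genes with TEAD-binding (MCAT) promoter elements did not move as one. Acta1, skeletal alpha-actin, had an RPKM of 587 in the control, 471 after miR-106b, 170 after miR-93 and 738 after miR-25, and was lower with miR-93 (log2 ratio -1.79, interval -1.83 to -1.75). Acta2, smooth muscle actin, had 164, 128, 139 and 440, and was higher with miR-25 (1.43). All 4 smooth muscle markers, of which Acta2 is one, were higher with miR-25, and their part in the Acta2 value was not tested. Myh7, a myosin heavy chain, and Tnnt2, the cardiac troponin T, were lower with miR-25 (-0.66 and -0.48), as all 5 cardiomyocyte markers were, and the part of these markers in the 2 values was not tested. Of the 4 genes, 0 passed the cutoff after miR-106b, 1 was lower after miR-93, and after miR-25 1 was higher and 2 were lower, or 2 higher and 1 lower when scaled to the reads on listed genes. The medians were -0.18, -0.23 and -0.07, the last of which turned to 0.08 under that scaling.

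Upstream of YAP and TAZ, 21 of the 23 Hippo pathway genes listed could be tested. With miR-25 10 were higher and 1 lower, a median log2 ratio of 0.32 beside -0.01 for all genes, of which 19.3% were higher and 22.6% lower. With miR-106b 3 were higher and 1 lower (-0.07), and with miR-93 2 were higher and 3 lower (-0.10), and scaled to the reads on listed genes these medians were 0.02 and 0.05, with 4 higher and 1 lower for miR-93. Lats2, Amotl2 and Ptpn14 belong both to this list and to the target signature. Wwc1 (Kibra), a scaffold that activates the kinases, had an RPKM of 1.04 in the control, 1.64 after miR-106b, 2.08 after miR-93 and 2.92 after miR-25, and was higher with each. Its control value lay near the filter, and at an RPKM cutoff of 2.0 Wwc1 was not tested against the control. With 1 RPKM added, the 3 genes of the list that were higher with miR-106b became 1. The kinase Map4k4, which can act on Lats1 and Lats2, had 19.1, 25.5, 26.7 and 30.7, and was also higher with each. Mob1a, a coactivator of the Lats kinases, had 23.8, 13.7, 16.0 and 44.8, lower with miR-106b (log2 ratio -0.80) and miR-93 (-0.58) and higher with miR-25 (0.91). Stk4 (Mst1), a core kinase of the pathway, had 8.75, 9.15, 8.30 and 18.7, and was higher with miR-25 (1.10). The kinase Taok2 was lower with miR-93 (-0.41) and the YAP-binding protein Amot with miR-25 (-0.39). The Amot call, at an RPKM of 1.15 with miR-25, was lost with 0.1 or 1 RPKM added, with the median gene subtracted, with scaling to the reads on listed genes and with an RPKM cutoff of 2.0.

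AP-1 factors bind DNA beside TEAD at many YAP target genes, and 6 of the 7 listed could be tested. With miR-106b and with miR-93 1 was higher and 2 lower (median log2 ratios -0.21 and -0.14), and with miR-25 4 were higher and 0 lower (0.56), where 19.3% and 22.6% of all genes were. With 1 RPKM added, or with an RPKM cutoff of 2.0, the 4 became 2. Fosl2, one of the 4 but not of the 2, is named after its values were seen. It had an interval that included 0 (log2 ratio 0.59, -0.22 to 1.43). For miR-106b 1 gene was lower in place of 2 with 0.1 RPKM added. Scaled to the reads on listed genes, 1 was higher and 1 lower with miR-106b and with miR-93, where the miR-93 median was 0.00. Jund had an RPKM of 11.3 in the control, 20.7 after miR-106b, 15.9 after miR-93 and 20.6 after miR-25, and was higher with each. Fos had 8.52, 5.97, 5.18 and 8.41, and was lower with miR-106b (-0.51) and miR-93 (-0.72). Fosl1 passed the cutoff downward with the same mimics, with intervals that included 0 (-0.39, interval -0.91 to 0.13, and -0.46, -1.01 to 0.08). It was higher with miR-25 (0.53, 0.07 to 1.00), and Junb was higher with miR-25 (0.62).

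**Figure D5:**
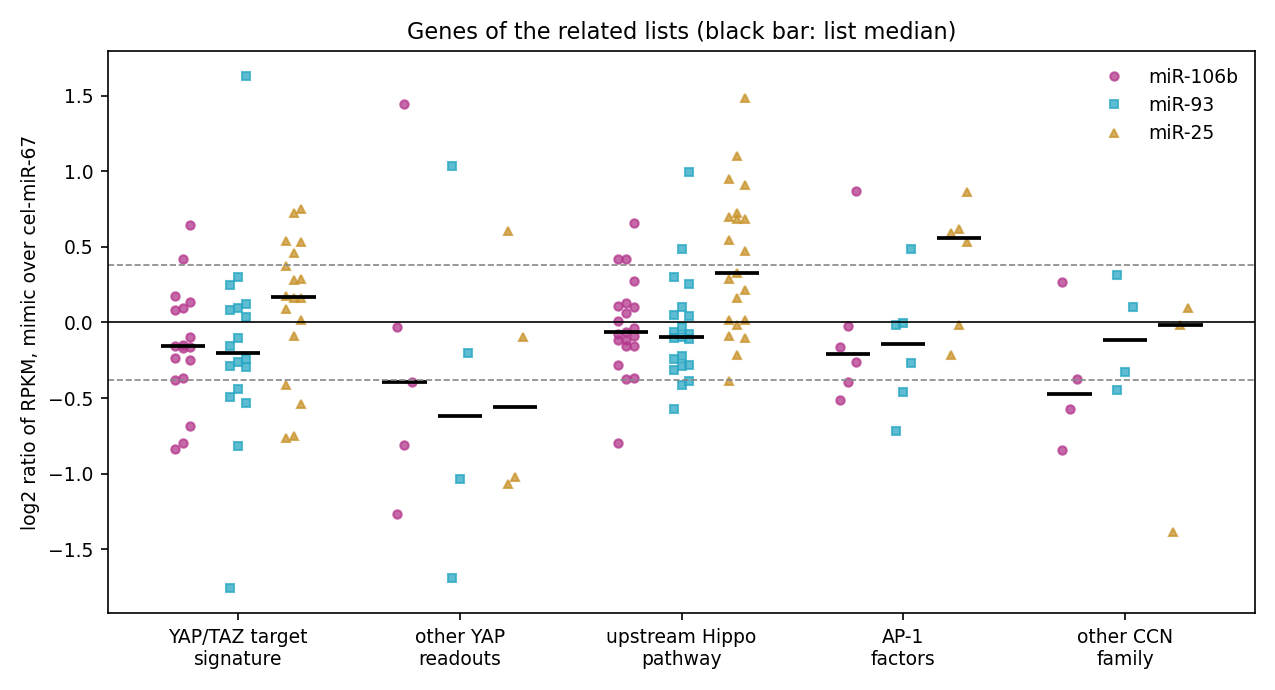
Log2 ratio over the control library for each tested gene of the target signature, YAP readout, upstream Hippo, AP-1 and CCN lists. There is 1 point per gene and mimic, with the median of each list as a bar and dashed lines at 1.3-fold. The muscle genes with TEAD-binding elements and Vgll3 are not drawn. The upstream Hippo and AP-1 medians lie at 0.32 and 0.56 with miR-25, and those of the YAP readouts lie below 0 with all 3 mimics.

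The genes whose pattern over the 3 ratios lay nearest to Yap1 among 10699 genes were Fggy, Pdcd4 and Kdr, at Euclidean distances of 0.0765, 0.0831 and 0.0861 on the log2 scale. Those nearest to Ctgf were Pla1a, RT1-CE3 and Nt5c2, at 0.0561, 0.0938 and 0.119. The measure rests on 3 ratios, which share the control library. Kdr, an endothelial marker, had an RPKM of 1.26 in the control, near the filter.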

How the data were processed

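RNA of 4 neonatal rat cardiomyocyte cultures, 1 for each mimic, was sequenced. As the methods and processing notes state, the authors ran FASTQC, trimmed adaptors by Cutadapt, aligned reads with STAR 2.7 to the rat genome Rnor 6.0, rounded the gene counts and deposited RPKM values made with edgeR. The program that counted reads is not given in the sources used here. RPKM depends on the length chosen for each gene and on the library size, so a change in a few abundant genes shifts all others.

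Values of the series table and of the 4 sample files were identical. Genes were matched by symbol. Whole reads were recovered for 15728 of 15731 genes from the steps of the RPKM values. The relative library size was taken from the most common ratio between libraries, and the absolute size was the largest that gave whole gene lengths. A common factor was restored in the reads of 654 genes. Reads on listed genes numbered 15175184 to 18797233 per library. The methods state far fewer reads per sample, and this difference was not resolved. The intervals rest on the recovered reads and would be wider with fewer reads. Ratios were taken without a pseudocount where both libraries had RPKM above 1.0, and past 1.3-fold was called. Intervals are 95% Clopper-Pearson intervals of the share of reads, and for ratios within a library exact conditional odds ratio intervals. The recovery of reads and the Clopper-Pearson intervals of the ratios to the control were tested on simulated data. The odds ratio intervals were not. With 1 library for each mimic, no test across cultures was possible.

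The 10 genes and the lists were chosen with earlier results of these data known. From each list and mimic, the genes named are up to 2 highest and 2 lowest past 1.3-fold. One gene chosen for a list is not reported here and was left out of its counts. Vgll1, Vgll2, Foxf2, Ttn and Pecam1 were not analysed here. Alternatives were pseudocounts of 0.1 and 1 RPKM, subtraction of the median gene, scaling to reads on listed genes, an RPKM cutoff of 2.0, no RPKM cutoff, and cutoffs of 1.5-fold and 2-fold. Tools were matplotlib 3.10.9, pandas 2.3.3, scipy 1.17.1, numpy 2.4.6 and Python 3.11.15.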

Additional observations from a re-analysis of the deposited data

How the results depend on the processing

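No alternative run could reverse the direction of any of the 10 genes past 1.3-fold, so the lack of a reversal is no result. Pseudocounts and cutoffs keep the sign of a ratio. Scaling to the reads on listed genes shifted the ratios to the control by at most 0.15, beside a cutoff of 0.38. The number past the cutoff moved by over 1.5 times only with a stricter fold. With miR-106b it was 4, and 2 at 1.5-fold and 0 at 2-fold. With miR-93 it was 5, and 1 at 2-fold. With miR-25 it was 5, and 1 at 1.5-fold and 0 at 2-fold. For miR-93 over miR-106b it was 2, and 1 at 1.5-fold and 0 at 2-fold. For miR-25 over miR-106b it was 5, and 1 at 1.5-fold and 0 at 2-fold. For miR-25 over miR-93 it was 5, and 1 at 2-fold. The counts over all genes tested fell too. At 1.3-fold, 1.5-fold and 2-fold they were 2776, 1235 and 289 of 11296 for miR-106b. For miR-93 they were 3469, 1723 and 481 of 11280, and for miR-25 4698, 2727 and 921 of 11198. They were 1766, 698 and 119 of 11391 for miR-93 over miR-106b. For miR-25 over miR-106b they were 5047, 3061 and 1160 of 11183, and over miR-93 5044, 3083 and 1221 of 11198.

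Scaling to the reads on listed genes moved the median of all genes by 0.08 for miR-106b, by 0.15 for miR-93 and by 0.15 for miR-25 on the log2 scale. Under it Ankrd1 was no longer past the cutoff with miR-25 (-0.33), and Vgll4 passed it for miR-93 over miR-106b, at 0.41 in place of 0.35. With 1 RPKM added, Tead4 was short of the cutoff with miR-25. At an RPKM cutoff of 2.0 Tead4 was not tested against the control or miR-93 libraries, where it lay at 2.00 and 1.59. Its calls for miR-25 over these 2 libraries were then lost. Over the alternatives the genes past the cutoff among all tested ran from 289 to 5720 for miR-106b, from 481 to 6329 for miR-93 and from 921 to 7744 for miR-25. Between mimics they ran from 119 to 4228 for miR-93 over miR-106b, from 1160 to 8249 for miR-25 over miR-106b and from 1221 to 8235 for miR-25 over miR-93. The lowest counts were at 2-fold and the highest with no RPKM cutoff. No paired analysis was possible because each mimic has 1 library, and no library could be left out for the same reason. Depth limits Tead4 and Vgll4 most, with 228 to 381 and 238 to 334 reads per library.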
